A study of Homo sapiens with 346 samples.

Results

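The 10 genes described here carry glucose to lactate and out of the cell, and were taken by name from the gene tables: the glucose transporter SLC2A1, the enzymes ALDOA, GAPDH, PGK1, ENO1, PKM, LDHA and LDHB, and the lactate transporters SLC16A1 and SLC16A3. They are 10 of 28806 genes listed for HCT-116 and of 29551 listed for HepG2, and all of them were found in both tables. They were selected on their mean levels, shares of cells and co-variation in these same cells, so the levels and ratios below describe them and are not a test. HCT-116, an established human colorectal carcinoma line, and cells labelled HepG2, a line known as a liver carcinoma, were both grown in DMEM with fetal bovine serum and antibiotics, and no gene was edited. Live cells were sorted and processed directly, whereas fixed cells were kept in 80% methanol in the cold for 1 week, and single cells of both kinds were made into Smart-seq2 libraries, which cover transcripts over their whole length.

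The deposited tables held 91 live and 92 fixed HCT-116 cells, and 68 live and 83 fixed cells labelled HepG2. HepG2 was run in separate repeats that no label tells apart, HCT-116 was run once, and the libraries of fixed cells were made after the week of storage, so that fixation and library batch cannot be told apart. Each line and treatment therefore counted as 1 sample: there was no replicate check, and no p-value was computed. The median total was 2.5, 1.8, 2.4 and 2 M (mega) reads per cell for live then fixed HCT-116 and live then fixed HepG2, with 0.2 M as the lowest and 5.3 M as the highest. Ribosomal RNA took a mean of 25.7% and 7.86% of the TPM (transcript abundance per length, scaled to a fixed sum per cell) in live and fixed HCT-116 cells, and 6.28% and 2.44% in live and fixed HepG2 cells, so every other level was scaled differently in the groups. One live HepG2 column held the same values as 1 fixed column, and 6 fixed HepG2 columns correlated with another above 0.95. None of 17 hepatocyte markers was present, above 1 TPM in at least 50% of the cells, in either group labelled HepG2, and the 9 of them with a row there summed to a median of 0.121 TPM in the live and 0 in the fixed cells. In the same cells 8 (live) and 10 (fixed) of 12 luminal breast epithelium markers were present, against 3 in HCT-116, with summed levels of 1410 to 26274 TPM (live) and 1175 to 16424 TPM (fixed). The label is therefore used as a name only. Of 12 intestinal epithelium markers CDX2 alone was present in HCT-116.

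Glycolysis splits glucose to pyruvate and yields ATP without oxygen. Tumour cells often run it at a high rate even in air, reduce the pyruvate to lactate with lactate dehydrogenase, and export the lactate with a proton through monocarboxylate transporters. Many of these genes, LDHA, PGK1 and SLC16A3 among them, are known targets of the hypoxia-inducible factors, which bind sites with the core ACGTG. SLC16A1 is widely expressed, whereas SLC16A3 is known as the exporter of strongly glycolytic cells.

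The start regions of 4 members are shown because these genes behaved differently from cell to cell: LDHA and PGK1 varied together with the other enzymes, and SLC16A3 and LDHB did so less. The sequences are the RefSeq windows (GRCh38.p14) from 250 bases before to 50 bases after an annotated start, 300 bases each, with ACGTG on either strand (read as ACGTG or CACGT) in capitals. For SLC16A3 and LDHA, which have several listed starts, the window with the most CG dinucleotides (SLC16A3) or the most matches (LDHA) is printed.
SLC16A3, chr17:82228792-82229091, plus strand: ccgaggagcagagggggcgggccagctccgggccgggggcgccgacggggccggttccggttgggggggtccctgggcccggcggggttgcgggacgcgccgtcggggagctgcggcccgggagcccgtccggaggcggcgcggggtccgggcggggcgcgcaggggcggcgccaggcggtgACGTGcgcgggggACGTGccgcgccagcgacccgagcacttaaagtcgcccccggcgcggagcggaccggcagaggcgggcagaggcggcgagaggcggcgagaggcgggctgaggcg
LDHA, chr11:18394313-18394612, plus strand: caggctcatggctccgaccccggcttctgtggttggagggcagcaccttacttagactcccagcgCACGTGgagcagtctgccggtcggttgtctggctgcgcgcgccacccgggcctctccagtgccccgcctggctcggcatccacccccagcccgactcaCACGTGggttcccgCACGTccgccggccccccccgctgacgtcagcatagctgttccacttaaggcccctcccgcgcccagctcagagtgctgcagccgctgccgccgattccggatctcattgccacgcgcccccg
PGK1, chrX:78103998-78104297, plus strand: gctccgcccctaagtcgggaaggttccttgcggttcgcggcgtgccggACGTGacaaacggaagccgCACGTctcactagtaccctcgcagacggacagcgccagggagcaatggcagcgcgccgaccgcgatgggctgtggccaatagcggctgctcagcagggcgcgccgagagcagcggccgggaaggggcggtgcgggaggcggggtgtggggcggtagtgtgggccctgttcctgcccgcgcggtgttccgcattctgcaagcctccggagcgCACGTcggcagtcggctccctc
LDHB, chr12:21657793-21658092, minus strand: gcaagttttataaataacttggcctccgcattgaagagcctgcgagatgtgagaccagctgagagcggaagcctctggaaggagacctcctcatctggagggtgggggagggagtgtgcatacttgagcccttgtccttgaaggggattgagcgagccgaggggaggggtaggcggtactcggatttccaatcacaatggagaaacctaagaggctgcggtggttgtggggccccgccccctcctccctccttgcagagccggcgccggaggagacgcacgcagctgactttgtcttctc
The SLC16A3 window held 2 matches, the LDHA window 5 (overlapping matches counted each), the PGK1 window 3 and the LDHB window 0. The other listed windows of SLC16A3 and LDHA held 0. So did those of ENO1 and PKM, which varied together with LDHA and PGK1. Sequence outside these windows was not searched, and a link between matches and co-variation was not tested. A match stood in 21.4% of 35116 windows of this length in the table, and in 7 of the 16 windows listed for 9 members, which belong to ALDOA, GAPDH, LDHA, PGK1 and SLC16A3. Several windows of 1 gene are not independent, and the members are too few to set against that share. The windows held 51 CG dinucleotides in SLC16A3, 38 in PGK1, 29 in LDHA and 14 in LDHB, beside a median of 14 over all windows. A match is only a match of letters. SLC16A1 is named here without a sequence.

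SLC2A1, also called GLUT1, brings glucose into the cell and was the most uneven member in HCT-116. In live HCT-116 cells it ranged from 3.36 through a median of 54.6 to 736 TPM, and in fixed HCT-116 cells from 0.0888 through 31.7 to 789 TPM. The SD over cells was larger than the mean in both groups, at 84.9 ± 106.7 TPM in live (SD, n = 91 cells) and 79.1 ± 135.4 TPM in fixed cells (SD, n = 92 cells). The groups overlapped almost entirely in HCT-116, with a log2 ratio of mean TPM, fixed to live, of -0.10, while the ratio of the medians was -0.79. In cells labelled HepG2 the level was 53.6 ± 33.3 TPM in live (SD, n = 68 cells) and 23.5 ± 17.8 TPM in fixed cells (SD, n = 83 cells), a log2 ratio of -1.19. Here 67 of 83 fixed cells lay below the lower quartile of the live cells, although only 2 lay below the lowest of them.

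The 5 enzymes from aldolase to pyruvate kinase were present in every cell. ALDOA cleaves fructose bisphosphate, GAPDH oxidises the triose phosphate, PGK1 makes the first ATP, ENO1 forms phosphoenolpyruvate, and PKM makes the second ATP and pyruvate. GAPDH was the most abundant member in all 4 groups, with 5155 ± 2529 TPM (live) and 6710 ± 2681 TPM (fixed) in HCT-116 and 3622 ± 1223 TPM (live) and 4678 ± 1266 TPM (fixed) in HepG2, the SD being over cells. Next to it stood ENO1 in HCT-116, at 1681 ± 567 TPM live and 2448 ± 800 TPM fixed, but ALDOA in HepG2, at 1649 ± 605 TPM live and 1830 ± 693 TPM fixed. GAPDH exceeded the second member in 91 of 91 and 92 of 92 HCT-116 cells and in 67 of 68 and 82 of 83 HepG2 cells.

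Behind it, neighbours were mostly closer than their spread. In live HCT-116 cells the means of ENO1, ALDOA, LDHB, LDHA and PKM each differed from the next by less than the pooled SD over cells, and PKM exceeded PGK1 by 224 TPM, just over the pooled SD of 221 TPM. In live HepG2 cells the same held from ENO1 through LDHA and PKM to PGK1, all between 262 and 471 TPM. PGK1 stood above SLC2A1 by more than the pooled SD in all 4 groups. At the low end the means of SLC2A1 and SLC16A1 in HCT-116, and of SLC16A1, SLC16A3 and LDHB in live HepG2 cells, again differed by less than the SD. The SD over cells does not give the order within a cell. SLC2A1, with the higher mean, exceeded SLC16A1 in only 37 of 91 live and 27 of 92 fixed HCT-116 cells. In live HCT-116 cells ENO1 exceeded ALDOA in 84 of 91, whereas ALDOA exceeded LDHB in 32 of 91.

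**Figure D1:**
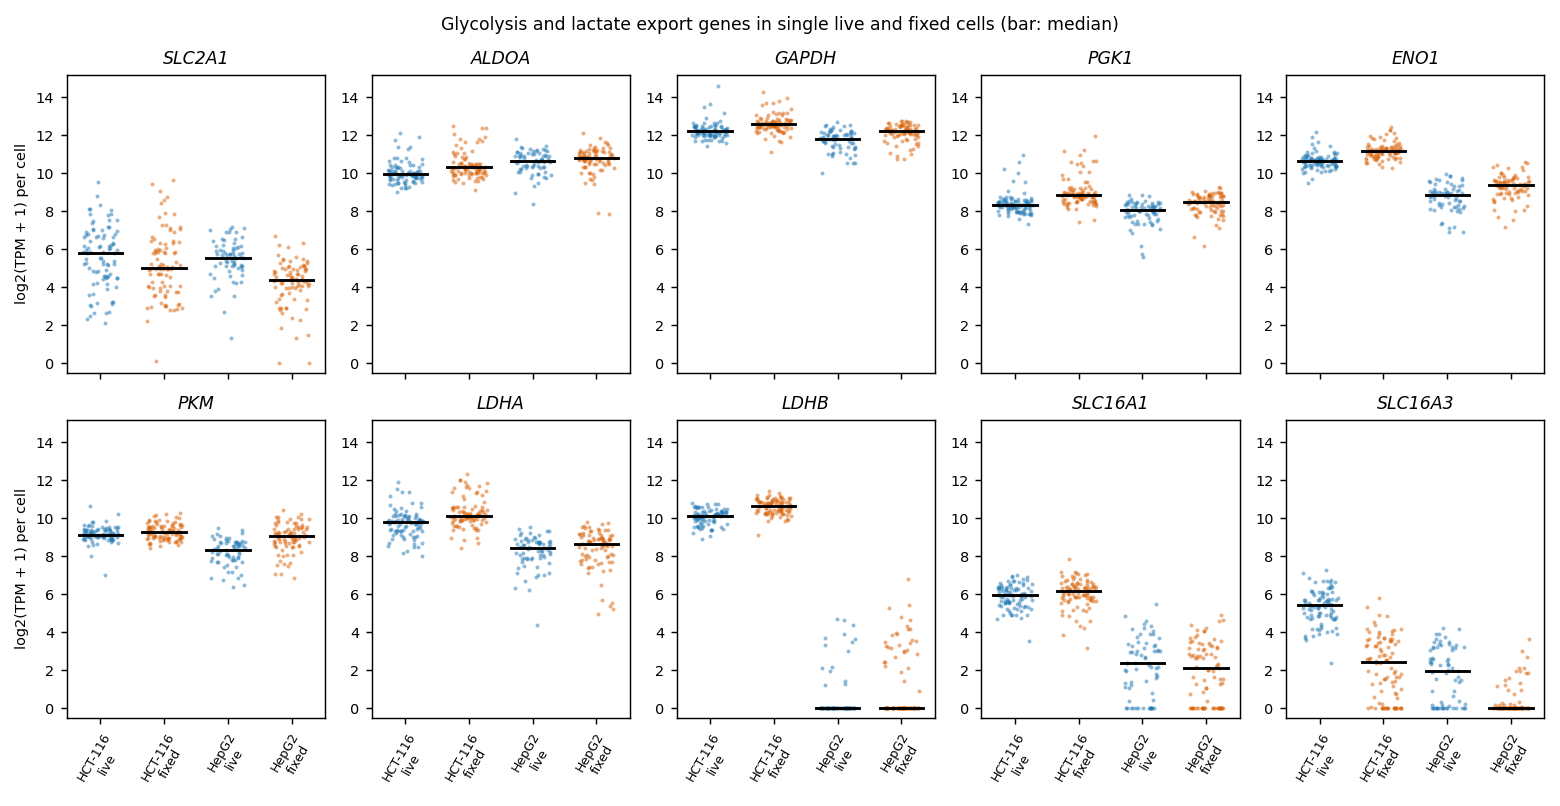
Level of each of the 10 genes, as log2(TPM + 1), in every live (blue) and fixed (orange) cell of both lines, 1 point per cell with the median as a bar. The fixed cells sit below the live ones for SLC16A3 in both lines and for SLC2A1 in HepG2, and LDHB is at 0 in most cells labelled HepG2.

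Between treatments the enzymes were higher in fixed than in live cells by less than 2-fold in HCT-116. The log2 ratios of mean TPM were 0.76 for PGK1, 0.60 for LDHA, 0.54 for ENO1 and LDHB, 0.45 for ALDOA, 0.38 for GAPDH and 0.12 for PKM, with a median of 0.54 over the 7 enzymes beside 0.17 over all 11813 genes with a mean of at least 1 TPM. In HepG2 the 6 enzymes other than LDHB had log2 ratios from 0.15 (ALDOA) to 0.80 (PKM), and the median of all 7 was 0.44 beside 0.15 over 12486 genes. Live and fixed cells overlapped for each of these enzymes. In HCT-116 85 of 92 fixed cells lay above the live median for ENO1 and 84 each for PGK1 and LDHB, and in HepG2 70 of 83 did for PKM and 69 for ENO1. Fixed cells above the highest live cell, a limit that 1 cell sets, numbered 33 of 92 for LDHB in HCT-116 and 20 of 83 for PKM in HepG2.

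These ratios depended on what a cell was scaled to. When each cell was divided by its median ratio to a reference, over genes found in at least 90% of cells, this moved the median of all genes from 0.17 to -0.03 in HCT-116 and from 0.15 to -0.06 in HepG2, and leaving out ribosomal RNA moved it to -0.16 and 0.09. The enzyme medians moved with it, to 0.34 and 0.22 (HCT-116) or 0.24 and 0.38 (HepG2), and stayed above the median of all genes. PKM in HCT-116 changed sign, with -0.06 after rescaling and -0.20 without ribosomal RNA, as did ALDOA in HepG2, with -0.04 after rescaling. Together the 7 enzymes made up 1.11% ± 0.43 of the TPM of live HCT-116 cells against 1.53% ± 0.57 of fixed ones, and 0.75% ± 0.21 against 0.89% ± 0.22 for HepG2 (SD over cells). As a share of the TPM outside ribosomal RNA the HCT-116 values were 1.51% ± 0.64 and 1.66% ± 0.65.

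By the 2-fold mark, 0 members were higher and 1 lower in fixed HCT-116 cells, namely SLC16A3, where 2.99% of all genes were higher and 8.84% lower. In HepG2 1 was higher (LDHB) and 2 were lower (SLC2A1 and SLC16A3), where 4.89% of all genes were higher and 9.76% lower. The members were chosen with these values known, so nothing is read from the counts. At a 1.5-fold mark 12.3% of all genes were higher and 16.4% lower in HCT-116, and 15.6% and 17.6% in HepG2. With rescaling the higher calls were 14.2% in place of 25.3% of all 2-fold calls in HCT-116, and 16.96% in place of 33.4% in HepG2. Without ribosomal RNA they were 10.1% and 28.8%, and the members past the mark were as many as before in both lines under each scaling.

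**Figure D2:**
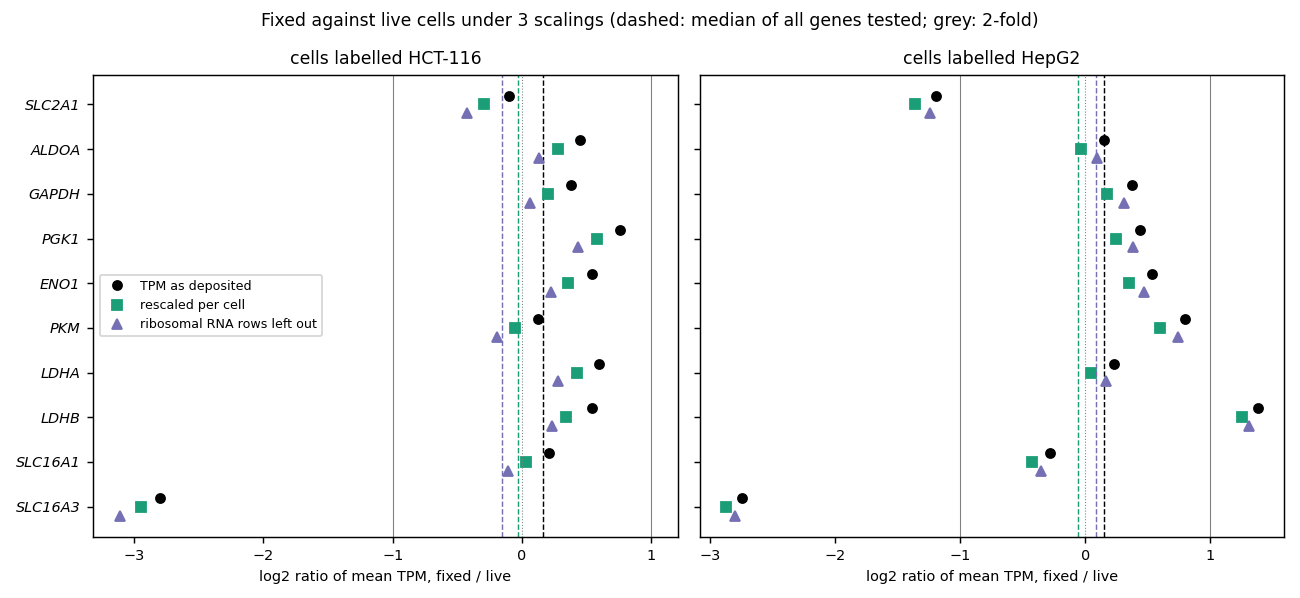
Log2 ratio of mean TPM, fixed to live, of the 10 genes in each line under 3 scalings, with the median of all genes tested dashed and the 2-fold marks in grey. SLC16A3 lies between -2.75 and -3.11 in both lines under all 3, and the enzymes other than LDHB in HepG2 lie between the 2-fold marks.

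Lactate dehydrogenase is a tetramer of LDHA and LDHB chains, of which LDHA is known to favour lactate formation and LDHB the reverse reaction. HCT-116 cells held both, with LDHA from 262 through a median of 884 to 3865 TPM in live cells and LDHB from 476 through 1123 to 1793 TPM. In fixed cells LDHA ranged from 342 through 1128 to 5250 TPM and LDHB from 546 through 1620 to 2739 TPM. LDHB was the more even of the pair, with a coefficient of variation of 0.258 in live cells against 0.606 for LDHA. Per cell, LDHB made up 55.9% ± 13.4 of the summed level in live (SD, n = 91 cells) and 55.6% ± 12.97 in fixed cells (SD, n = 92 cells), a share that does not depend on the scaling of the cell. It exceeded LDHA in 69 of 91 and 70 of 92 cells.

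Cells labelled HepG2 had LDHA but almost no LDHB. LDHA ranged from 19.8 through 339 to 740 TPM in live and from 30.5 through 396 to 903 TPM in fixed cells. LDHB was above 0 TPM in 15 of 68 live cells (22.1%, exact Clopper-Pearson 95% interval 12.9 to 33.8%) and in 31 of 83 fixed cells (37.3%, 26.97 to 48.7%), with a median of 0 in both. Its highest values, 25.3 TPM (live) and 110 TPM (fixed), stayed below the lowest HCT-116 cell. LDHB was 1.19% ± 4.81 (live) and 1.87% ± 5.97 (fixed, SD over cells) of the LDHA and LDHB level, and exceeded LDHA in 0 cells. The mean of 2.15 ± 5.48 TPM for live cells against 5.60 ± 14.2 TPM for fixed ones, SD over cells, gave a log2 ratio of 1.38, which rests on those few cells and was 0.62 as a difference of the mean log2(TPM + 1). Such intervals cover counting error only. Where these reads came from was not tested.

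SLC16A1 (MCT1) and SLC16A3 (MCT4), the transporters at the end of the pathway, differed from each other between treatments. In live HCT-116 cells SLC16A1 ranged from 10.45 through a median of 60.8 to 126.1 TPM, and in fixed cells from 8.09 through 71.1 to 230 TPM. SLC16A3 ranged from 4.13 through 41.8 to 152.9 TPM in live cells, and from 0 through 4.39 to 54.7 TPM in fixed cells. The fixed cells were thus low for SLC16A3 and not for SLC16A1.

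For SLC16A3 the mean was 47.7 ± 29.2 TPM in live (SD, n = 91 cells) and 6.83 ± 8.92 TPM in fixed HCT-116 cells (SD, n = 92 cells), 6.98-fold lower, with a log2 ratio of -2.80. In all, 88 of 92 fixed cells lay below the lower quartile of the live cells, 44 lay below the lowest live cell, and 1 lay above the live median, so that the groups overlapped in part. Only 96 of 11813 genes had a lower ratio. SLC16A1, by contrast, was at 63.6 ± 25.4 and 73.5 ± 34.6 TPM, a log2 ratio of 0.21 that was -0.11 without ribosomal RNA.

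In cells labelled HepG2 both transporters were near the limit of detection. SLC16A1 ranged from 0 through a median of 4.19 to 43.2 TPM in live and from 0 through 3.31 to 29.2 TPM in fixed cells, a log2 ratio of mean TPM of -0.28. SLC16A3 ranged from 0 through 2.90 to 17.8 TPM in live and from 0 through 0 to 11.6 TPM in fixed cells. Its mean was 4.32 ± 4.67 TPM in live (SD, n = 68 cells) and 0.643 ± 1.74 TPM in fixed cells (SD, n = 83 cells), 6.71-fold lower, with a log2 ratio of -2.75. No fixed cell could lie below the lowest live cell, which was at 0, and 59 of 83 fixed cells lay below the live lower quartile. With 1 TPM added to both means the log2 ratio was -1.69.

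The share of cells with any SLC16A3 was lower in fixed cells too. Fewer genes of any kind were detected in fixed cells, with medians of 12031 (live) and 10359 (fixed) in HCT-116 and 13887 and 12293 in HepG2. How far the lower share is particular to SLC16A3 was not tested. SLC16A3 was above 0 TPM in all 91 live HCT-116 cells (exact 95% interval 96.03 to 100%) and in 73 of 92 fixed cells (79.3%, 69.6 to 87.1%). In HepG2 51 of 68 live cells had it (75%, interval 63.02 to 84.7%), as did 25 of 83 fixed ones (30.1%, 20.5 to 41.2%). Some of these values stood for less than 1 estimated read. Above 1 TPM, HCT-116 had SLC16A3 in 100% of live and 69.6% of fixed cells, and HepG2 in 61.8% and 16.9%.

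The shares also differed at a common depth. At 500000 reads a cell (3 fixed HCT-116 cells had fewer), SLC16A3 would be expected with at least 1 read in 100% of live and 70.7% of fixed cells of HCT-116, and in 58.8% (live) and 15.1% (fixed) of HepG2 cells. These shares use only the transcripts matched to RefSeq, which missed SLC16A3 in 13 HepG2 cells and 3 HCT-116 cells that had a TPM above 0. For SLC16A1, missed in 27 HepG2 cells, HCT-116 had expected shares of 98.9% (live) and 100% (fixed) and HepG2 of 59.3% and 49.2%, next to 79.4% and 69.9% of HepG2 cells above 0 TPM. SLC2A1 was above 0 in 81 of 83 fixed HepG2 cells and in every cell of the other groups.

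Set against each other within a cell, SLC16A3 was the smaller part of the pair on average, more so in fixed cells. SLC16A3 made up 41.4% ± 15.1 of their summed TPM in live (SD, n = 91 cells) and 8.61% ± 11.2 in fixed HCT-116 cells (SD, n = 92 cells), and exceeded SLC16A1 in 33 live but only 2 fixed cells. In HepG2 it made up 43.6% ± 37.4 in live (SD, n = 63 cells) and 16.7% ± 31.5 in fixed cells (SD, n = 64 cells), leaving out 5 and 19 cells in which both were at 0. Their shared partner BSG (basigin), which brings both to the membrane, had log2 ratios of -0.12 and 0.09.

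SLC16A3 also stood out in base composition, which the choice of genes did not use. Its reference transcript (GENCODE 44) had 2599 bases and a GC content of 64.7%, higher than 96.4% of the genes tested in HCT-116. SLC16A1 had the lowest GC content of the members, 40.3%, and PGK1 (42.8%), LDHA (41.8%) and LDHB (43.7%) were also below the median gene, at 47.6%. Across 10520 genes of HCT-116 and 10867 of HepG2 Spearman's rho between GC content and the fixed to live log2 ratio was -0.48 and -0.29, and with length it was -0.01 in both. Genes are not independent replicates. The 376 HCT-116 genes of at least the GC content of SLC16A3 had a median log2 ratio of -0.75, and the 338 of HepG2 -0.26. ALDOA, at 60.5% GC, had ratios of 0.45 and 0.15. The part of GC content in the SLC16A3 value was not tested.

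The transcript tables, which hold CPM (reads as a share of all reads of the cell, not divided by length), showed which transcripts carried the difference. In HCT-116 NM_004207.3 carried 53.6% and NM_001042422.2 37.05% of the SLC16A3 CPM in live cells. NM_004207.3 was at 36.3 ± 34.7 CPM in live and 3.37 ± 8.17 in fixed cells, and NM_001042422.2 at 25.1 ± 25.8 and 3.22 ± 8.11 CPM (SD over cells). NM_001206952.1 was at 2.56 ± 9.39 CPM live and 3.77 ± 10.1 CPM fixed in HCT-116, a difference well inside the SD over cells with a median of 0 in both, and at 1.92 ± 4.13 and 0.707 ± 2.72 CPM in HepG2, a log2 ratio of -1.44. In HepG2 NM_001042423.2, another of its transcripts, was at 3.53 ± 6.57 and 0.212 ± 1.21 CPM. kallisto divides reads among overlapping transcripts, so each of these splits is an estimate.

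Among the other members a minor transcript of ENO1 had a log2 ratio as low as those of SLC16A3. NM_001201483.1 was at 50.3 ± 194 CPM in live and 2.45 ± 7.70 CPM in fixed HCT-116 cells, a log2 ratio of -4.36, and at 6.29 ± 10.2 and 0.161 ± 0.975 CPM in HepG2, a log2 ratio of -5.29 (SD over cells). The live HCT-116 mean rested on a few cells: the median was 9.80 CPM and the highest cell had 1632 CPM. The main ENO1 transcript, NM_001428.3, had log2 ratios of 0.63 and 0.44, and the minor one made up 2.81% of the ENO1 CPM in live HCT-116 cells.

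GAPDH and LDHA were each carried almost wholly by 1 form, whereas PGK1 and SLC2A1 had only 1 matched transcript each and so no split to show. ALDOA was mostly NM_184041.2, at 924 CPM in live HCT-116 cells beside 235 CPM of NM_184043.2, and the second was rare in HepG2, at 28.1 beside 1982 CPM. LDHB reads in HCT-116 were given in equal parts to NM_001315537.1 and NM_002300.7, 480 CPM each in live cells, which is how the quantification treats transcripts it cannot separate. PKM, whose M1 and M2 forms differ by an alternative exon, was carried by XM_005254445.4 (664 CPM in live HCT-116 cells) and the M2 form NM_002654.5 (214 CPM), with the M1 form NM_182471.3 at 26.6 CPM.

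**Figure D3:**
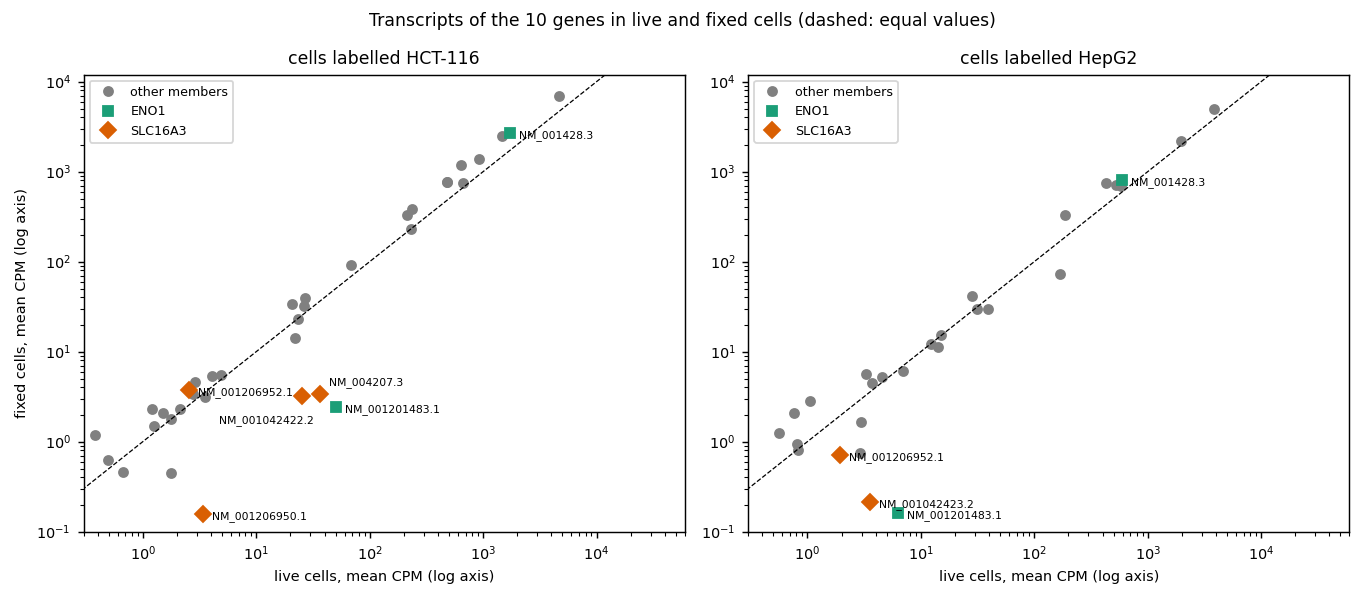
Mean CPM of each listed transcript of the 10 genes in live (horizontal) and fixed (vertical) cells of each line, on log axes, with equal values dashed, for transcripts whose mean over both groups was at least 0.5 CPM and above 0 in each. The SLC16A3 transcripts other than NM_001206952.1 in HCT-116, and the minor ENO1 transcript, lie well below the line.

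Between the lines, 5 members were lower by at least 2-fold in live cells labelled HepG2 than in live HCT-116 cells and 0 were higher, where 18.7% of 12481 genes were lower and 22% higher. In fixed cells 6 were lower and 0 higher, where 18% of 12232 genes were lower and 22% higher. At 1.5-fold the shares of all genes were 28% lower and 32.6% higher in live cells, and 27.9% and 32.6% in fixed cells. The live log2 ratios, HepG2 to HCT-116, were -9.02 for LDHB, -3.46 for SLC16A3, -3.29 for SLC16A1, -1.83 for ENO1 and -1.49 for LDHA, and those of the fixed cells were -8.18, -3.41, -3.78, -1.85 and -1.86. SLC2A1 passed the mark in fixed cells alone, at -1.75 against -0.67 in live cells. ALDOA was the 1 member with a higher mean in HepG2, with log2 ratios of 0.50 in live and 0.20 in fixed cells. The tables were deposited separately per line, and without ribosomal RNA the median of all genes moved from 0.07 to -0.28 for live cells, the higher calls from 54.1% to 37.6% of all calls, and the members lower by 2-fold from 5 to 7.

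Across the cells of a group, 6 of the enzymes varied together. Spearman's rho between ALDOA, GAPDH, PGK1, ENO1, PKM and LDHA ranged from 0.37 to 0.64 (live) and 0.41 to 0.73 (fixed) for HCT-116, and from 0.55 to 0.79 (live) and 0.23 to 0.63 (fixed) for HepG2 cells, over 15 pairs each. Over all 21 pairs of the 7 enzymes the median was 0.43, 0.52, 0.58 and 0.47 in live HCT-116, fixed HCT-116, live HepG2 and fixed HepG2 cells. Over all pairs of the 2000 most abundant broadly detected genes it was 0.10, 0.09, 0.22 and 0.10. Those genes were not matched to the enzymes in level, and the enzymes were chosen with their co-variation known. The cells of a group share culture, plate and the fixed sum of TPM, so these are descriptions over 91, 92, 68 and 83 cells.

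Depth moved with the enzymes in the cells labelled HepG2. The summed enzyme TPM had a rho with the number of genes detected of 0.48 for live and 0.39 for fixed HepG2 cells, against -0.01 and -0.25 for HCT-116. With total reads it was 0.38 and 0.43 for HepG2, against 0.0022 and -0.14 for HCT-116. Rescaling each cell brought the median rho of the 7 enzymes to 0.36 (live) and 0.31 (fixed) in HepG2. Ranks fitted on genes detected and total reads are taken up in the last section. The part of depth in the HepG2 values was not tested further.

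LDHB followed the others less closely. In live HCT-116 cells, where it was present in every cell, its rho was -0.30 with ALDOA, -0.02 with GAPDH, 0.02 with PGK1, -0.09 with PKM and -0.0045 with LDHA. In fixed HCT-116 cells it was 0.44 with ENO1 and 0.26 with LDHA, and -0.05 with ALDOA. SLC2A1 stood between, with 0.27 for LDHA and 0.40 for PKM in live and 0.38 and 0.45 in fixed HCT-116 cells.

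**Figure D4:**
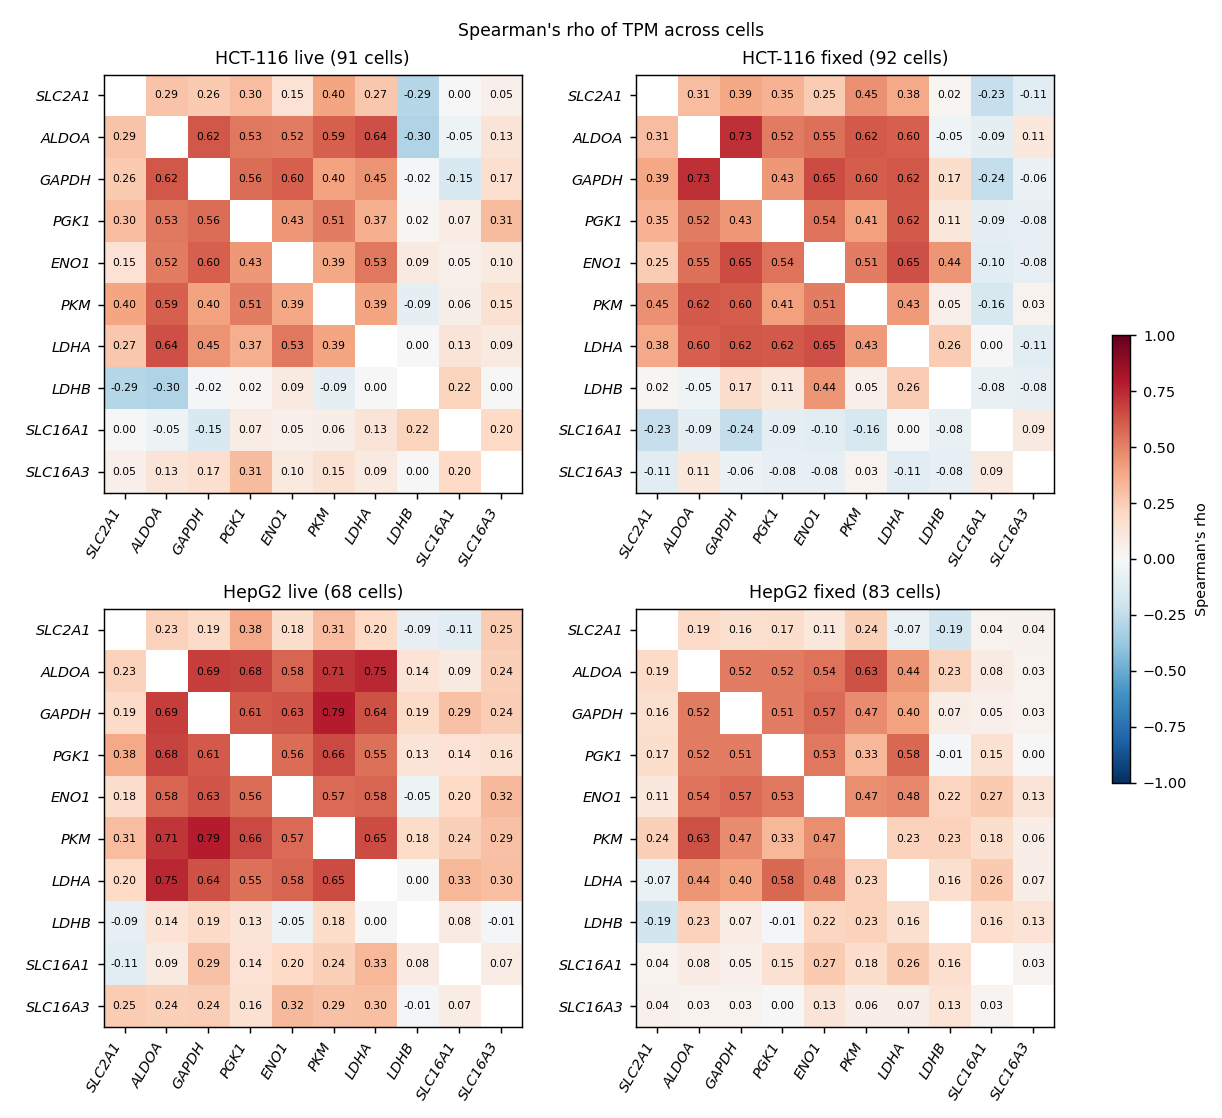
Spearman's rho of TPM for each pair of the 10 genes across the cells of each group, from -1 (blue) to 1 (red). ALDOA, GAPDH, PGK1, ENO1, PKM and LDHA form a block of positive values in all 4 groups, between 0.23 and 0.79. LDHB, SLC16A1 and SLC16A3 have lower values with most of these genes. Some of their pairs reach into that range, such as LDHB with ENO1 at 0.44 in fixed HCT-116 cells and SLC16A3 with ENO1 at 0.32 in live HepG2 cells.

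The cells highest for LDHA in HCT-116 were often also highest for other enzymes. Of the 10 live cells highest for LDHA, 8 were also among the 10 highest for ALDOA, 8 for GAPDH, 8 for PGK1, 7 for ENO1 and 4 for PKM, while 1 was among the 10 highest for LDHB and 1 for SLC16A3. In fixed HCT-116 cells the shared cells were 7, 8, 8, 8 and 8, and 1 for LDHB and 3 for SLC16A3. The same live cells were high in known hypoxia targets outside glycolysis: the summed TPM of these targets ranged from 83.97 through a median of 233 to 6240, and 8 of its 10 highest cells were among the 10 highest for LDHA. In live HepG2 cells the highest value was 515, and 3 of 10 were shared. Over all live cells the rho of LDHA with this sum was 0.26 in HCT-116 and 0.44 in HepG2. That of SLC16A3 was 0.03 and 0.42. Abundant genes lead such a sum, and these differed between the lines. DDIT4 had a mean of 265 TPM in live HCT-116 and 17.2 TPM in live HepG2 cells, and CA12 of 0.778 and 94.5 TPM. With Pearson's coefficient of log2(TPM + 1), which gives the highest cells more weight, the median over the 21 pairs was 0.59 for live and 0.68 for fixed HCT-116.

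SLC16A3 did not follow the abundant enzymes closely in any group. Its rho with their summed TPM was 0.21 (live) and -0.05 (fixed) for HCT-116, and 0.30 (live) and 0.07 (fixed) for HepG2. After rescaling, the live values were 0.06 in both lines. With the single enzymes the rho in live HCT-116 cells ran from -0.00067 (LDHB) to 0.31 (PGK1), and with SLC16A1 it was 0.20. In fixed cells the many values at or near 0 leave little to rank, and its rho with the number of genes detected was 0.22 in HCT-116 and 0.12 in HepG2. Live HepG2 cells were near this limit too, with SLC16A3 at a median of 2.90 TPM and at 0 in 17 of 68 cells. A low rho at such levels does not show that the genes are unlinked.

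**Figure D5:**
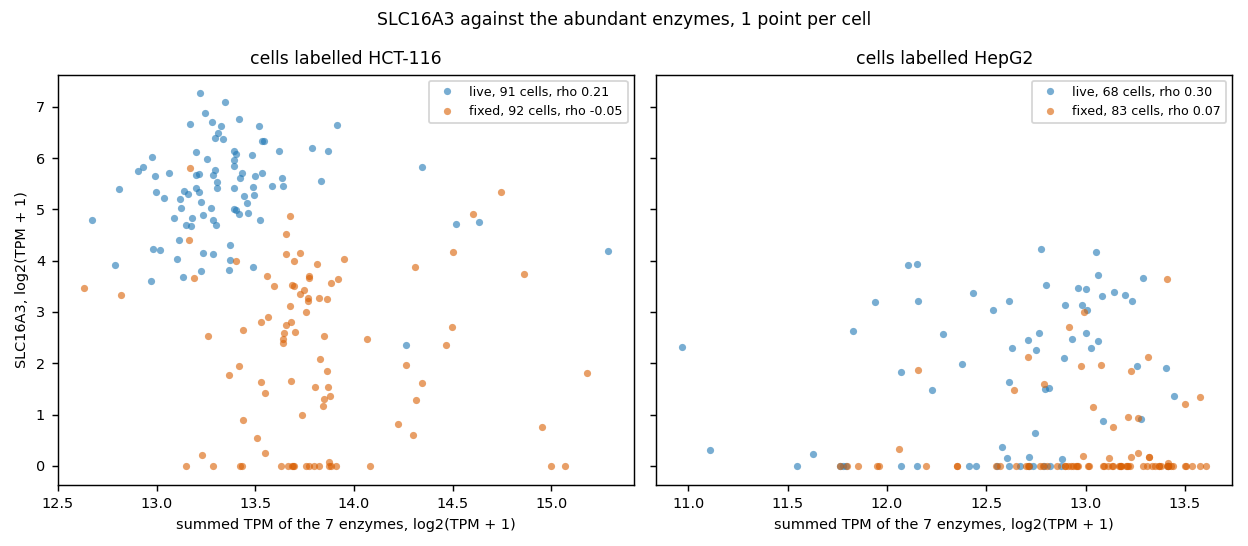
SLC16A3 against the summed TPM of the 7 enzymes, both as log2(TPM + 1), 1 point per live (blue) or fixed (orange) cell in each line. Fixed HCT-116 cells lie lower for SLC16A3 and slightly further right. In each group the cell with the highest enzyme sum is not the highest for SLC16A3. Some fixed HCT-116 cells are high for both, such as those with sums of 27446 and 24848 TPM and SLC16A3 at 39.7 and 29.1 TPM.

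Among 10372 other genes above 0 TPM in at least 50% of the live cells of both lines, those whose ranks were most like SLC16A3 were PPP1CC, MRPL38, PPP4C, NOL3 and POLDIP2, with a mean rho over the live groups between 0.37 and 0.42 and no member among them. The closest member was PGK1, at place 409, with 0.23, beside a median of 0.07 over all these genes. PKM, ENO1, GAPDH, LDHA and ALDOA followed at places 581, 693, 786, 967 and 1141, with 0.22, 0.21, 0.20, 0.19 and 0.19. SLC2A1 stood at place 2047 and SLC16A1 at 2363, with 0.15 and 0.14, so each of these members lay above that median. The summed enzymes were, in contrast, most like GPI, PFKP, TPI1, PGAM1 and P4HB, with means of 0.69, 0.56, 0.55, 0.55 and 0.53. The first 4 of these catalyse other steps of glycolysis. SLC16A3 stood at place 1285 of 10367 in that order, with 0.25, and SLC16A1 at place 5017, with 0.12, close to the median of 0.11.

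The other enzymes of glycolysis were divided between treatments. Of 24 listed, 14 were tested in each line, 4 were lower in fixed cells by at least 2-fold and 0 higher in either, where 8.84% (HCT-116) and 9.76% (HepG2) of all genes were lower and 2.99% and 4.89% higher. The median log2 ratios were -0.32 in HCT-116 and -0.44 in HepG2, beside 0.17 and 0.15 over all genes. Of the 4 most abundant, TPI1, PGAM1 and GPI had higher means in fixed cells of both lines and PFKP a lower one: in HCT-116 TPI1 was at 1000 ± 194 TPM live and 1231 ± 311 TPM fixed, PGAM1 at 539 ± 186.1 and 689 ± 258, and GPI at 223 ± 189.3 and 283 ± 203 (SD over cells). The liver-type phosphofructokinase PFKL was lower by 2-fold in both lines, with 43.8 ± 18.1 and 20.1 ± 13.98 TPM in HCT-116 and 86.6 ± 37.2 and 42.2 ± 31.4 TPM in HepG2, whereas the platelet type PFKP had log2 ratios of -0.29 and -0.81. ENO3 and GAPDHS, the muscle enolase and the sperm form of GAPDH, were also lower by 2-fold in both but did not exceed a mean of 4.76 TPM. The last in each line, named after its value was seen, was HKDC1 in HCT-116 (-2.32) and LDHD in HepG2 (-1.94).

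Of the genes that regulate or reverse glycolysis 0 of 8 (HCT-116) and 0 of 9 (HepG2) were past 2-fold, too few genes to set apart from the shares of all genes given above. FBP1, the gluconeogenic bisphosphatase, separated the lines, at 341 ± 124.3 and 427 ± 157.99 TPM in live and fixed cells labelled HepG2 and at 0.101 ± 0.611 and 0.062 ± 0.399 TPM in HCT-116. G6PC3 (0.38 and 0.32), PCK2 (-0.27 and -0.20) and ADPGK (0.05 and -0.65) are given as log2 ratios of mean TPM, fixed to live, in HCT-116 and HepG2. Other sugar and lactate transporters and genes for the fate of pyruvate made up 20 (HCT-116) and 22 (HepG2) tested genes. Of these 1 was higher and 1 lower by 2-fold in HCT-116, where 2.99% of all genes were higher and 8.84% lower. In HepG2 0 were higher and 1 lower, where 4.89% of all genes were higher and 9.76% lower. Nothing is read from such small counts. The 1 that was higher was SLC2A3, a neuronal-type glucose transporter, at 0.690 TPM live and 3.59 TPM fixed, named after its value was seen. The 1 that was lower in both was PC, pyruvate carboxylase, with log2 ratios of -1.90 and -2.38 and means of 4.38 and 7.95 TPM in live cells. PDP1, the phosphatase that activates pyruvate dehydrogenase, was at 234 ± 113.3 TPM in live HCT-116 and 5.79 ± 4.73 TPM in live HepG2 cells, while the dehydrogenase subunits PDHA1 and PDHB were at 55.4 to 65.3 TPM in live cells of both.

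The list of hypoxia targets outside glycolysis also held HIF1A, EPAS1 and ARNT, which encode subunits of the factors themselves. These were left out of the summed TPM above but are counted here. Of the tested genes, 16 of 20 in HCT-116 and 13 of 19 in HepG2 had higher means in fixed cells. Among all genes 7241 of 11813 and 7482 of 12486 did. The median log2 ratios were 0.43 and 0.30 beside 0.17 and 0.15 over all genes. Past 2-fold, 2 of 20 were higher (ANKRD37 and VEGFA) and 2 lower (ANGPTL4 and EPAS1) in fixed HCT-116 cells, where 2.99% of all genes were higher and 8.84% lower. In HepG2 1 of 19 was higher (DDIT4) and 3 lower (ANGPTL4, CA12 and ADM), where 4.89% of all genes were higher and 9.76% lower. ANKRD37, VEGFA, EPAS1, CA12 and ADM are named after their values were seen. BNIP3, a mitophagy receptor, had log2 ratios of 0.90 and 0.30, P4HA1, a collagen prolyl hydroxylase, 0.99 and 0.75, HIF1A itself 0.53 and 0.26, and DDIT4, an inhibitor of mTOR signalling, -0.33 and 1.44. ANGPTL4, a secreted inhibitor of lipoprotein lipase, was the 1 lower in both, at -1.20 and -2.41. Of 14 respiratory chain genes none passed 2-fold in either line, too few genes to set apart from the shares of all genes above. Their medians were 0.37 and 0.41, close to those of the abundant glycolytic enzymes. ATP5B in HCT-116 was at 1039 ± 236 TPM live and 1352 ± 276 TPM fixed. COX6C had log2 ratios of 0.36 and 0.47, COX4I1 0.33 and 0.38, and COX5B 0.31 and 0.49.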

How the data were processed

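Single live and methanol-fixed cells were sequenced with Smart-seq2. According to the submitters' processing notes and the methods, read quality was inspected with FastQC, reads were quantified with kallisto 0.46.0 on a human transcriptome (GRCh38), and transcripts were summed to genes with tximport. The methods keep cells with over 4000 genes detected. The authors deposited the gene values as TPM, 1 table per line. The transcript values deposited by the authors are CPM, not divided by length. Columns were assigned to a line and treatment by the prefix of their name. Of 346 labelled cells, 12 had no column. The smallest spacing of CPM values gave each cell's total reads, rounded to 0.1 M.

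The members and lists were chosen with earlier results of these data known. Named genes were the 10 members, from each list the genes past 2-fold in the same direction in both lines and up to 4 of the most abundant, and the 5 genes most like SLC16A3 or the summed enzymes over live cells. Ratios were log2 of mean TPM, without a pseudocount, over genes whose mean of the group means was at least 1 TPM. Co-variation was Spearman's rho. Transcripts were matched by RefSeq accession, without version. Alternatives changed the pseudocount, summary, filter, fold, scaling, ribosomal RNA, detection limit, coefficient, depth and cells. Leaving out very similar columns or LDHB was chosen after seeing the data. The tools were pandas 2.3.3, scipy 1.17.1, numpy 2.4.6, matplotlib 3.10.9 and Python 3.11.15, and the computations were tested on simulated data in which 200 of 28806 (HCT-116) or 29551 (HepG2) genes were changed by 2 on the log2 scale, of which 200 passed 2-fold in each line.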

Additional observations from a re-analysis of the deposited data

How the results depend on the processing

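No paired analysis was possible because each line and treatment is 1 sample and the numbers in the titles name single cells; for the same reason no sample could be left out in turn. A value was taken as moved where it shifted by more than 1.5-fold or the SD over cells (log2), by more than 0.1 (rho), outside its interval (shares) or by more than 1.5 times (counts). On this measure 27 of the values that answer a comparison moved, all given here, and 0 called values reversed in sign. Of the other single values 238 stayed and 5 moved. The causes of the shifts were not tested. The fixed to live log2 ratio of SLC16A3 in HepG2 was -1.69 with a pseudocount and -1.39 as a mean of log2(TPM + 1). Neither it nor LDHB has a value for medians in HepG2, where a median is 0. In HepG2 the members higher by 2-fold numbered 0 by means of logs or by medians, and 2 with cells paired on total reads (38 a group). HepG2 against HCT-116, LDHB was -8.47 in live cells with a pseudocount and -9.33 in fixed cells by mean logs, and SLC16A3 in fixed cells was -2.25 and -1.77. The share of cells with SLC16A3 was 69.6% (HCT-116 fixed), 61.8% and 16.9% (HepG2 live, fixed) above 1 TPM, and 58.8% and 15.1% (HepG2) at 500000 reads.

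The median rho of the enzymes was 0.59 and 0.68 with Pearson's coefficient (HCT-116 live, fixed), 0.36 and 0.31 after rescaling (HepG2 live, fixed) and 0.37 with ranks fitted on genes detected and reads (HepG2 fixed). For SLC16A3 with the summed enzymes it was -0.028 with Pearson's coefficient and 0.062 after rescaling (HCT-116 live), 0.056 after rescaling and 0.18 with fitted ranks (HepG2 live), and -0.036 with fitted ranks (HepG2 fixed). At 1.5-fold, 11 listed genes in HCT-116 and 9 in HepG2 were higher in fixed cells, beside 3 and 1 at 2-fold, and 17 were lower in HepG2, beside 8. Few reads limit the low members: SLC16A3 in fixed HepG2 cells was above 0 TPM in 25 of 83 cells, and its matched transcripts, which missed some cells, had a mean of 1.76 reads per cell.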
